A study of Mus musculus with 6 samples.

Results

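The cells described here are lung endothelial cells that carried RNA of at least 2 of 3 genes, Esm1, Cxcr4 and Mecom, and they are called Esm1/Cxcr4/Mecom cells. They were chosen by the detected RNA of each cell barcode. A barcode was kept if it had at least 500 detected genes, at most 10% mitochondrial unique molecular identifiers (UMIs, each counting 1 captured RNA molecule), no UMI of the leukocyte gene Ptprc, and at least 1 UMI of 3 or more of the 5 endothelial genes Cdh5, Egfl7, Pecam1, Tie1 and Cldn5. Cells were then left out if they carried at least 3 of 6 aerocyte genes (Car4, Fibin, Emp2, Tbx2, Chst1, Apln), 2 of 3 arterial genes (Gja5, Bmx, Dkk2), 2 of 4 venous genes (Selp, Bst1, Amigo2, Lhx6), 2 of 3 proliferation genes (Mki67, Top2a, Cenpf) or 2 Prnd UMIs. In all, 1010 of 31547 endothelial cells met this rule, among 38208 cells that passed the filter and 43545 deposited barcodes.

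The study profiled lungs of WT mice and of TNF-Tg littermates, which carry a human TNF transgene and develop pulmonary hypertension with arthritis, by 10x 3′ single-cell RNA-seq. There were 6 libraries, 1 per genotype at ages of 8, 14 and 20 weeks, each made from pooled lungs of female mice and sorted for live cells negative for CD45 and CD326. The single mice of a pool could not be told apart, so the unit of every test is the library, 3 per genotype, and p-values measure the spread between libraries of different ages. The deposited tables list mouse genes, so the human TNF transcript itself was not measured.

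Esm1, an endothelial proteoglycan induced by VEGF, marks tip cells of growing vessels, which lead a sprout under the control of the Notch ligand Dll4. In growing vascular beds Esm1-positive cells that gain Cxcr4, the receptor of the chemokine Cxcl12, move against the flow into new arteries, and Notch targets such as Hey1 rise as they do. Mecom is a transcription factor of arterial endothelium. Bone morphogenetic protein (BMP) signalling through Bmpr2 and the receptor Acvrl1 restrains sprouting, and loss of Bmpr2 is the best-known genetic cause of pulmonary arterial hypertension.

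WT libraries held 183, 211 and 295 Esm1/Cxcr4/Mecom cells at 8, 14 and 20 weeks and TNF-Tg libraries 206, 49 and 66. Summed over these cells, the libraries gave 1141617, 1207490 and 1762782 UMIs in WT and 2015435, 693891 and 649256 UMIs in TNF-Tg. The 14- and 20-week TNF-Tg sums were thus the smallest and their values the least precise. Median UMIs per cell were 5454, 4744 and 4983 in WT and 9171.5, 10023 and 9686 in TNF-Tg, and the other endothelial cells, defined below, showed the same gap (4131, 3892 and 3926.5 in WT, 7848, 7875 and 8343 in TNF-Tg). Deeper cells reach 2 detected genes more easily, and the part of this gap in the choice of cells was followed by thinning all cells to 2000 UMIs. No barcode of the chosen cells occurred in more than 1 library, whereas 212 barcode sequences did among all barcodes.

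Which genes qualified a cell differed between the genotypes (described, not tested, since these genes made the choice). Esm1 lies at chr13:113209659-113218098, Cxcr4 at chr1:128588199-128592293 and Mecom at chr3:29951296-30548008 on mm10. Cells with Esm1 and Cxcr4 but no Mecom made up 37.7%, 38.4% and 31.9% of the chosen cells in WT at 8, 14 and 20 weeks and 12.1%, 4.08% and 9.09% in TNF-Tg. The WT shares all lay above the TNF-Tg shares. Cells with Cxcr4 and Mecom but no Esm1 were 28.4%, 20.4% and 37.3% in WT and 72.3%, 57.1% and 39.4% in TNF-Tg, and here the TNF-Tg libraries were the higher ones. Esm1 with Mecom came to 14.2%, 14.2% and 11.5% in WT against 2.91%, 26.5% and 33.3% in TNF-Tg. All 3 genes were found in 194 cells, 19.7%, 27.0% and 19.3% of the WT cells and 12.6%, 12.2% and 18.2% of the TNF-Tg cells.

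**Figure D1:**
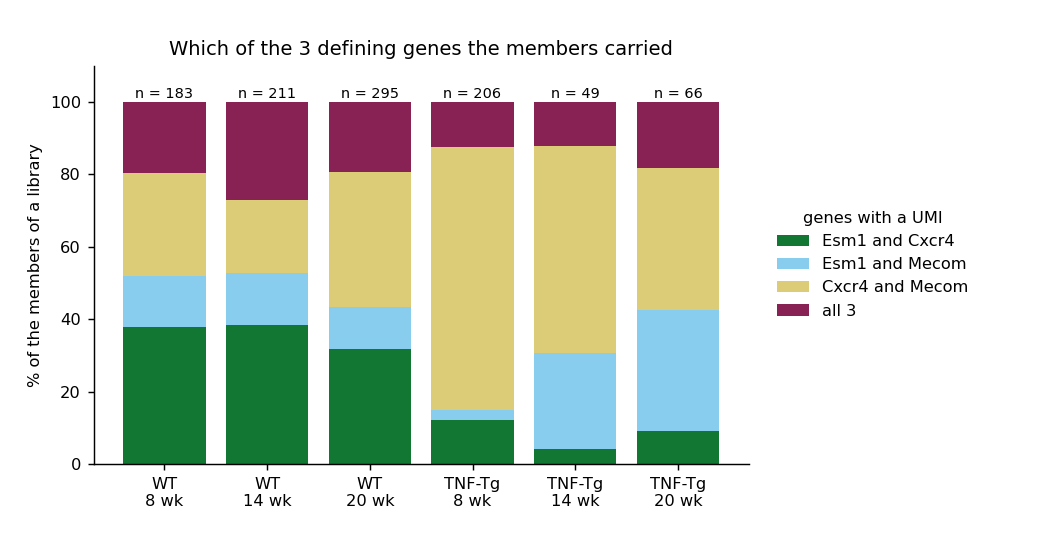
Share of the Esm1/Cxcr4/Mecom cells (members) of each library (x axis, genotype and age in weeks) that carried each combination of the 3 defining genes (y axis, percent of the cells, each bar adding to the whole library). Cells with Esm1 and Cxcr4 take over 30% in each WT library and at most 12.1% in TNF-Tg, where Cxcr4 with Mecom is the most frequent combination at every age.

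The margin of the rule was narrow. In 272 of the 1010 cells (26.9%) each carried gene was seen with 1 UMI only. The 816 cells just inside the rule, with exactly 2 genes, had median depths of 5448, 4528.5 and 4863 UMIs in WT and 9218.5, 10180 and 9627 UMIs in TNF-Tg. The endothelial cells just outside it, with 1 gene, had 4806.5, 4460 and 4330 UMIs in WT and 8464, 8777.5 and 8676 UMIs in TNF-Tg, less than the cells just inside in each library. Of the 2368 endothelial cells with at least 2 of the 3 genes, 1358 (57.3%) were dropped for the other classes, 1005 of them for Prnd, alone or with another class. The Prnd drop was uneven: it took 0%, 0.719% and 2.09% of such cells in WT and 52.6%, 78.1% and 81.4% in TNF-Tg. The TNF-Tg cells described below are therefore those among the TNF-Tg cells with 2 of the 3 genes that had at most 1 Prnd UMI.

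Detection of Cxcr4 and Mecom was not confined to endothelium. Among the chosen cells Esm1 had a UMI in 71.6%, 79.6% and 62.7% in WT and 27.7%, 42.9% and 60.6% in TNF-Tg. In cells of the same libraries that carried fibroblast genes, which should lack Esm1, the share was 0.498%, 1.74% and 1.34% in WT and 0.208%, 0.828% and 1.53% in TNF-Tg, at median depths of 7191.5 to 14451.5 UMIs. The rule fixes the first of these shares, so the contrast is a description. Mecom was seen in 62.3%, 61.6% and 68.1% in WT and 87.9%, 95.9% and 90.9% in TNF-Tg of the chosen cells and in 16.2%, 18.6% and 19.1% in WT and 23.8%, 28.0% and 21.0% in TNF-Tg of the fibroblast-gene cells, and Cxcr4 in 85.8%, 85.8% and 88.5% in WT and 97.1%, 73.5% and 66.7% in TNF-Tg against 5.85%, 5.43% and 10.6% in WT and 9.79%, 3.55% and 3.24% in TNF-Tg. In the fibroblast-gene cells Mecom was thus seen more often than Esm1 in every library. Esm1 was also common in the cells dropped as arterial, at 30%, 34.1% and 28.3% in WT and 9.77%, 7.25% and 9.30% in TNF-Tg.

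A few of the chosen barcodes carried RNA of another lineage. There were 33 with at least 3 detected markers of fibroblasts, smooth muscle, pericytes or epithelium, or with over 1% of their UMIs from erythroid and platelet genes (11, 3 and 5 in WT and 4, 8 and 2 in TNF-Tg). One barcode of the 14-week TNF-Tg library held 194164 UMIs and 10630 genes, carried all 10 epithelial markers, gave 28.7% of its UMIs to them, and alone made up 28.0% of that library's sum. With 54777 UMIs its leading marker was Scgb1a1, the secretoglobin of club cells, and it passed the choice with 39 Mecom UMIs among others. In the same library the 8 mixed barcodes together held 43.4% of the UMIs, against 1.66% to 9.93% in the other libraries. One barcode of the 8-week WT library gave 61.7% of its UMIs to hemoglobin. Tests between genotypes are therefore given for all 1010 cells, calls of the gene lists that changed after removal of the 33 mixed barcodes are given with the list or after the lists, and the removal was chosen after these barcodes had been seen.

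Marker lists of other cell types moved with these barcodes. The levels of the 10 epithelial markers, in counts scaled to a common total of UMIs (CPM), summed over these cells to 548, 244 and 313 CPM (WT) and 305, 80592 and 24.6 CPM (TNF-Tg) at 8, 14 and 20 weeks, led by Scgb1a1, and the 9 erythroid and platelet markers to 5461, 17.4 and 11.9 CPM (WT) and 277, 13 and 35.4 CPM (TNF-Tg), led by Hbb-bs. The 7 smooth muscle markers, led by Acta2, summed to 485, 37.3 and 997 CPM (WT) and 429, 1241 and 60.1 CPM (TNF-Tg), and the 10 fibroblast markers, led by Dcn, to 378, 32.3 and 136 CPM (WT) and 486, 367 and 710.0 CPM (TNF-Tg). In the smooth muscle and fibroblast lists the genotypes overlapped. Pericyte markers (8, led by Postn) lay between 29.0 and 274 CPM and lymphatic markers (7, led by Flt4) between 33.2 and 103 CPM, with the lymphatic gene Reln at 0. The 16 immune markers stayed between 4.54 and 40.0 CPM, and C1qb, Cd3d, Cd3e and Cd79b had no UMI. The part of these transcripts in the results was not tested beyond the removal of the mixed barcodes.

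Under the rule as given, the share of Esm1/Cxcr4/Mecom cells among endothelial cells was lower in TNF-Tg at 14 and 20 weeks but not at 8 weeks. It was 3.43%, 3.97% and 4.80% in WT and 3.43%, 1.03% and 1.64% in TNF-Tg (mean 4.07% ± 0.692 against 2.04% ± 1.25, SD, n = 3). The 8-week TNF-Tg library equalled the 8-week WT library, so the groups met at their edges. The difference of -2.03 percentage points gave p = 0.2 in a two-sided exact permutation test, in which 3 against 3 libraries cannot go below 0.1. With the cells dropped for Prnd kept, the shares were 3.43%, 4.01% and 4.92% in WT and 7.63%, 4.77% and 9.43% in TNF-Tg, a difference of 3.16 points in the opposite direction (p = 0.2, exact permutation test). At the depths as found, the direction of the share thus changed with 1 clause of the rule. The shares with the Prnd cells kept were not taken after thinning. Chosen after thinning to 2000 UMIs, the shares were 1.54%, 2.29% and 2.35% in WT and 1.74%, 0.878% and 1.68% in TNF-Tg (difference -0.625, p = 0.3, exact permutation test).

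**Figure D2:**
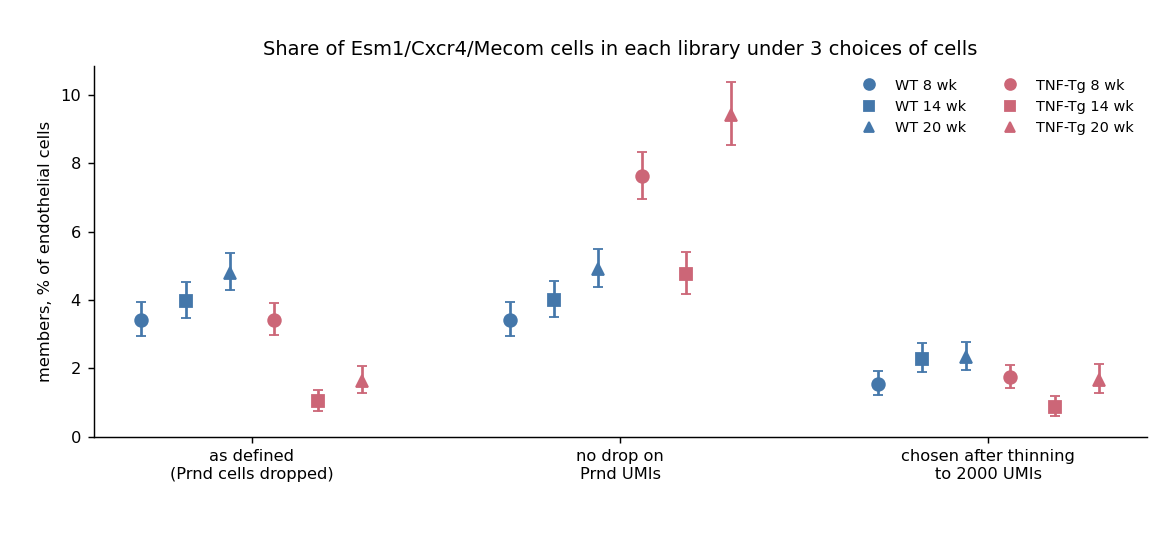
Percent of endothelial cells that were Esm1/Cxcr4/Mecom cells (members, y axis) in each of the 6 libraries, by genotype and age, under the rule as given, with cells of 2 or more Prnd UMIs kept, and after thinning to 2000 UMIs. Points are libraries and error bars are exact (Clopper-Pearson) 95% intervals that cover counting error only. Under the rule the 14- and 20-week TNF-Tg libraries are low, at 1.03% and 1.64%, and with the Prnd cells kept all 3 TNF-Tg libraries lie above the WT library of their age.

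CPM count the RNA of a gene relative to all RNA of the chosen cells of a library, so that fewer cells with a gene and less RNA per cell give the same value. Esm1 was at 480.0, 701 and 406 CPM (WT) and 61.5, 143 and 417 CPM (TNF-Tg) at 8, 14 and 20 weeks, lowest in the 8-week TNF-Tg library. One cell gave 78 of the 271 Esm1 UMIs of the 20-week TNF-Tg library, whose level rests on it in part. Cxcr4 was at 284, 373 and 361 CPM (WT) and 283, 108 and 176 CPM (TNF-Tg), lower in the 2 older TNF-Tg libraries, and Mecom lay between 159 and 209 CPM in every library.

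The name given to these cells was checked against marker lists by setting their CPM against those of the 17953 other endothelial cells, which passed the same filter, met none of the dropped classes and carried fewer than 2 of the 3 genes. This is a description without a test, since the cells were chosen by their RNA, and it was made after removal of the mixed barcodes. Of 8602 genes with at least 10 CPM, 801 (9.31%) were above the other cells in all 6 libraries and 419 (4.87%) below. With all barcodes these were 579 (6.73%) and 462 (5.37%). The 10 CPM level was taken with all barcodes, and a small constant was added to each sum. A gene without a UMI in the smaller sums of the chosen cells can thus count as above. Ccn3, at 0 CPM here and 0.303 CPM in the other cells in WT at 14 weeks, had a log2 ratio of 0.338. After the removal 5 of 10 epithelial markers counted as above in all 6 libraries. The 801 are therefore not all genes of higher CPM in every library. Of 19 arterial and pre-arterial genes at this level 9 were above in all 6 libraries (7 with all barcodes): Dll4 (median log2 ratio 1.5), the Notch target Hey1 (1.41), the matrix gene Ltbp4 (1.25), the artery-marking ephrin Efnb2 (1.14), the netrin receptor Unc5b (0.96), Cdh13, Cxcl12 (0.54), Edn1 and Nrp1. Cdh13 counts through the constant, since in WT at 8 weeks it was at 1.95 CPM here and 2.20 CPM in the other cells. Sox17, a transcription factor needed for arterial fate, was below in all 6 (-0.97). Of 18 Notch genes 4 were above throughout (Dll4, Hey1, Nrarp and Notch1) and 3 below (Dll1, Lfng and Jag1), or 4 and 2 with all barcodes.

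General capillary markers did not separate in 1 direction. Of 18 such genes 6 were above the other cells in all 6 libraries, led by Plvap (0.82), the diaphragm protein of fenestrated and growing capillaries, with the lipid-handling genes Lpl, Gpihbp1 and Cd36, and 6 were below, led by Sema3c (-1.73) with Kit, Aplnr and Cd93. With all barcodes 3 were above and 6 below. No venous gene of the 11 at this level was above throughout and 4 were below (3 with all barcodes), Nr2f2, the venous fate factor, among them. All 7 MHC class II genes, which mark antigen-presenting capillary cells, were below in every library, and so were 9 of 15 MHC class I genes (10 with all barcodes). Of 9 BMP target and SMAD genes Id1, Id2 and Id3 were above in all 6 and Smad5 below, and of 8 BMP inhibitors Smad6, Smad7 and Fstl1 were above and Fst below. With all barcodes 1 target was above and 1 below, and no inhibitor was on one side in all 6. The label pre-arterial-like thus had arterial and Notch genes on both sides, with more of the arterial genes above, and general capillary genes lay on both sides as well, so the cells are called by their defining genes here.

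Outside the rule, the 10 genes with at least 50 CPM and the largest median ratio to the other endothelial cells, all barcodes included, were Ccdc153, Slc45a4, Sec14l3, Adgrg6, Cd55, Atp13a3, Fabp4, Gm14207, Ivns1abp and Gata6. Ccdc153 and Sec14l3, genes of ciliated epithelium, had no UMI left once the mixed barcodes were removed, and Sulf1 and Cxcl16 took their places. Without the mixed barcodes the transporter gene Slc45a4 was at 108, 139 and 108 CPM (WT) and 20.8, 5.09 and 8.02 CPM (TNF-Tg), with 5.08, 4.30 and 6.08 CPM (WT) and 2.17, 2.74 and 2.42 CPM (TNF-Tg) in the other endothelial cells. The adhesion receptor Adgrg6 was at 127, 168 and 121 CPM (WT) and 58.2, 2.55 and 8.02 CPM (TNF-Tg), with 21.5, 20.8 and 19.9 CPM (WT) and 7.55, 2.09 and 1.58 CPM (TNF-Tg) in the other cells. Both were higher than in the other cells of the same library in all 6 libraries, and both had their lowest levels in the older TNF-Tg libraries. The values of the chosen cells in those older libraries rest on very few UMIs, above all Adgrg6 at 14 weeks (2.55 against 2.09 CPM). The cells dropped as arterial had more of both in WT, with 226, 261 and 283 CPM of Slc45a4 and 615, 683 and 585 CPM of Adgrg6. Adgrg6, Cd55, Atp13a3 and Gata6 were higher in the arterial cells than in the chosen cells in all 6 libraries, and Slc45a4 in 5. The lipid carrier Fabp4 was at 74.9, 11.8 and 187 CPM (WT) and 84.7, 1011 and 2087 CPM (TNF-Tg), with 52.1, 40.4 and 19.2 CPM (WT) and 12.7, 132 and 662 CPM (TNF-Tg) in the other cells, above them in 5 libraries and below them in WT at 14 weeks.

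Between genotypes, the Esm1/Cxcr4/Mecom cells of TNF-Tg lungs had less RNA of the Notch ligand Dll4, of the BMP receptors Bmpr2 and Acvrl1, of the ligands Bmp4 and Bmp6, of 7 of 18 capillary and 6 of 14 vasoactive genes. They had more RNA of 9 of 15 basement membrane genes and of the NF-kB feedback genes Tnfaip3, Tnip1 and Nfkbie. Of 19 arterial genes 5 were higher, Cxcl12, Sox17 and Unc5b among them, and 5 lower, Dll4 and Acvrl1 among them. Of 8887 genes tested by edgeR's quasi-likelihood test on the summed UMIs, 775 (8.72%) passed a false discovery rate of 0.05 by Benjamini-Hochberg adjustment, 359 higher in TNF-Tg (4.04%) and 416 lower (4.68%). The median log2 fold change over all tested genes was 0.01. After removal of the mixed barcodes 1093 of 8621 genes passed (12.7%, with 6.54% higher and 6.14% lower), and 724 genes passed both times with the same sign. WT and TNF-Tg libraries did not overlap in 2628 genes (29.6%). Fold changes below are TNF-Tg over WT on the log2 scale with their standard errors, and adjusted p-values come from this edgeR test with Benjamini-Hochberg adjustment over all 8887 genes. Genes used by the rule are left out of the counts of lists, while the 775 hold 4 of them (357 higher and 414 lower without them). Every gene said to have risen or fallen passed with and without the mixed barcodes unless another value is given. CPM below, and statements on their order or overlap, are with all barcodes unless said otherwise. In the 14-week TNF-Tg library the mixed barcodes held 43.4% of the UMIs. Genes that these barcodes carried little of are printed too low there. Vwf, for example, was at 17.3 CPM with and 25.5 CPM without them.

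Most of these changes were shared with the rest of the endothelium. All 775 genes were also tested in the other endothelial cells, where 3808 of 13315 genes (28.6%) passed, 14.5% higher and 14.1% lower. The sign was the same for 770 of the 775, and 710 passed there in the same direction. The changes that follow are therefore values of the Esm1/Cxcr4/Mecom cells and not features that set them apart, for which a test of the difference is given further on. The calls leaned on single libraries: without the WT library of 14 weeks 146 genes passed, without that of 20 weeks 149, without that of 8 weeks 262, and without the TNF-Tg library of 8 weeks 1388.

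Within the Notch pathway the ligand, receptor and targets of tip and arterial cells fell while another ligand rose. Dll4, the ligand (chr2:119325784-119335962), was at 378, 463 and 507 CPM (WT) and 252, 135 and 171 CPM (TNF-Tg) (log2 fold change -1.27 ± 0.21, adjusted p = 0.00957). With all barcodes, all WT libraries lay above all TNF-Tg libraries, and the 8-week TNF-Tg library was nearest to WT. The receptor Notch1 was at 355, 465 and 398 CPM (WT) and 239.7, 177 and 214 CPM (TNF-Tg) (log2 fold change -0.95 ± 0.16, adjusted p = 0.00946), again without overlap. Among targets, Nrarp, a feedback inhibitor of the pathway, was at 108, 118 and 141 CPM (WT) and 31.3, 21.6 and 44.7 CPM (TNF-Tg) (log2 fold change -1.94 ± 0.23, adjusted p = 0.00284), and Hey1 at 338, 356 and 391 CPM (WT) and 241, 167 and 263 CPM (TNF-Tg) (log2 fold change -0.70 ± 0.17, adjusted p = 0.0395). Nrarp separated the genotypes widely and Hey1 narrowly. The ligand Jag2 went the other way, at 30.7, 33.1 and 21.6 CPM (WT) and 108, 107 and 111 CPM (TNF-Tg) (log2 fold change 1.94 ± 0.20, adjusted p = 0.0015). Of 19 Notch genes tested, 1 rose and 5 fell, with a list median of -0.28, where 4.04% of all tested genes rose and 4.68% fell. The fifth, the coactivator Maml2, lost its call without the mixed barcodes (-0.62, adjusted p = 0.064).

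**Figure D3:**
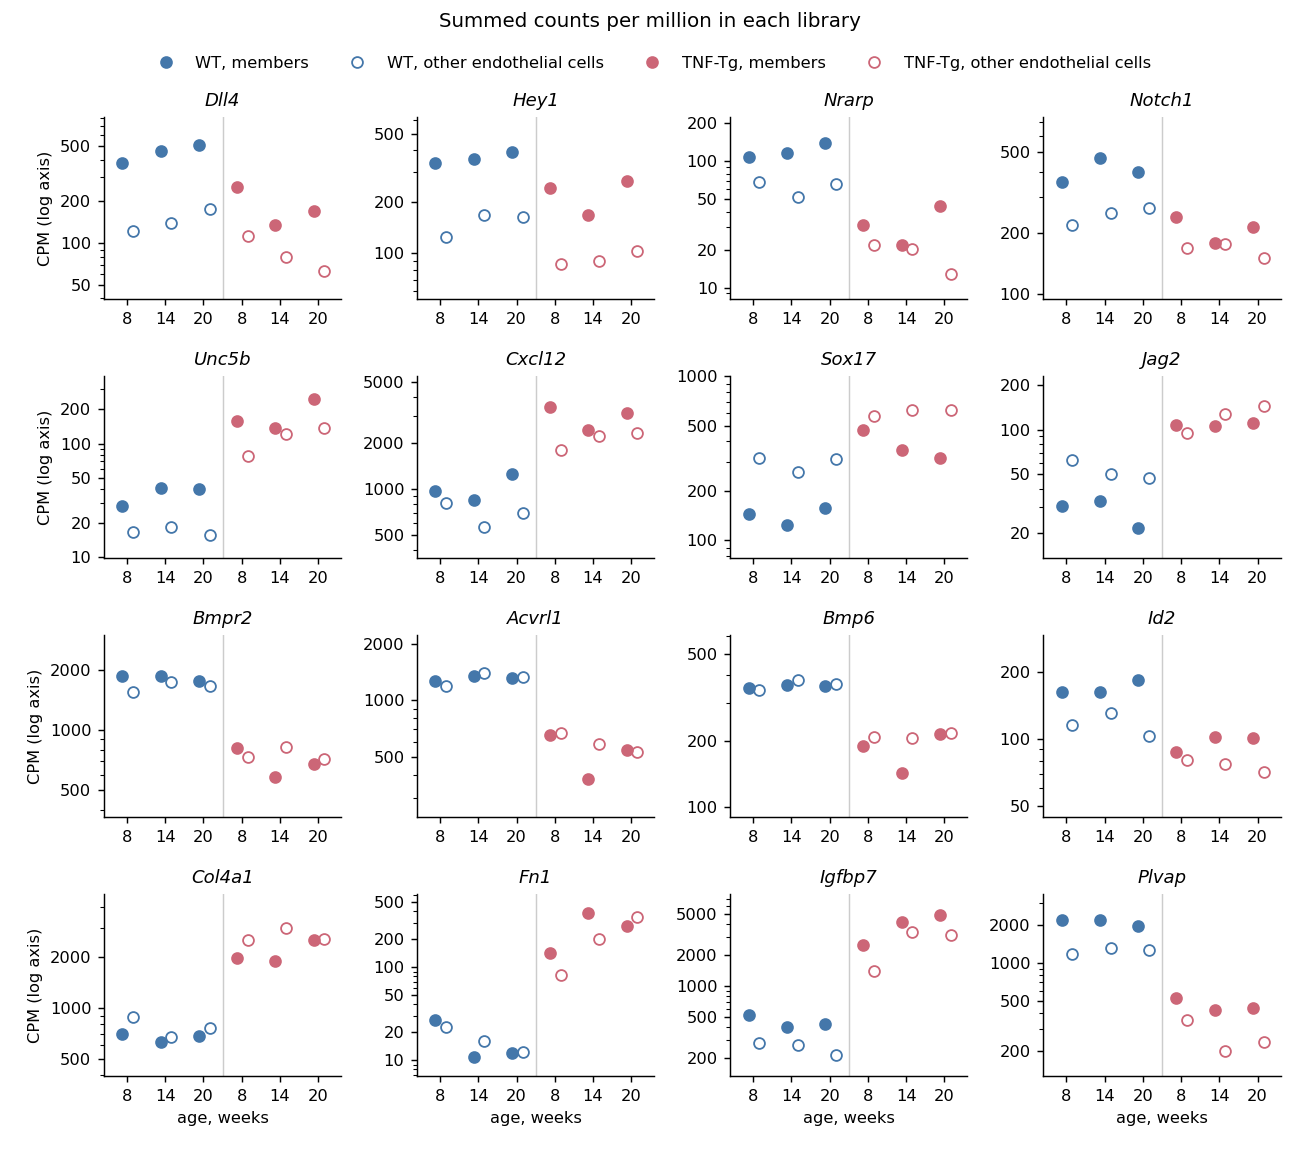
CPM on a log axis (y) of selected genes in each of the 6 libraries, by age in weeks (x), with WT left of the line and TNF-Tg right of it. Filled points are the Esm1/Cxcr4/Mecom cells (members, all 1010), open points the other endothelial cells of the same library. The Notch genes Dll4 and Nrarp and the receptor Bmpr2 are lower in all 3 TNF-Tg libraries, and Cxcl12, Unc5b and Igfbp7 are higher in all 3.

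Arterial genes did not change together. Of 19 tested, 5 rose and 5 fell (list median 0.41). The chemokine Cxcl12, which guides Cxcr4-bearing cells, was at 977, 842 and 1257 CPM (WT) and 3409, 2439.9 and 3129.7 CPM (TNF-Tg) (log2 fold change 1.54 ± 0.18, adjusted p = 0.00262). Unc5b was at 28.0, 40.6 and 39.7 CPM (WT) and 158, 138 and 246 CPM (TNF-Tg) (log2 fold change 2.30 ± 0.25, adjusted p = 0.00201) and Sox17 at 145, 124 and 157 CPM (WT) and 472, 353 and 319 CPM (TNF-Tg) (log2 fold change 1.42 ± 0.18, adjusted p = 0.00325). For these genes every TNF-Tg library exceeded every WT library. The matrix gene Fbln2 also rose (1.46, adjusted p = 0.0274 by edgeR), though its value was -0.020 with the Prnd cells kept. So did the adhesion gene Cdh13 (3.82, 0.0472), at 13.1, 4.97 and 13.6 CPM (WT) and 11.9, 156 and 313 CPM (TNF-Tg), where the 8-week TNF-Tg library lay within the WT range (log2 fold change 4.76 without the mixed barcodes). Efnb2 was at 948, 1147 and 1050.0 CPM (WT) and 816, 438 and 441 CPM (TNF-Tg) (log2 fold change -0.90 ± 0.23, adjusted p = 0.042), and the arterial semaphorin Sema3g fell too (-0.87, adjusted p = 0.0203). The fallers of the arterial list were thus Hey1, Dll4, Efnb2, Sema3g and Acvrl1, and the risers were Unc5b, Sox17, Cxcl12, Fbln2 and Cdh13. Gja4, an arterial gap junction gene, was at 363, 359 and 349 CPM (WT) and 852, 303 and 274 CPM (TNF-Tg), which did not pass (adjusted p = 0.549).

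Tip cell and angiogenic genes rose more often than they fell. Of 18 tested, 5 rose (Cd34, Nrp2, Unc5b, Pdgfb and Cxcl12) and 2 fell (Dll4 and Plvap), with a median of 0.21. The VEGF and semaphorin coreceptor Nrp2 was at 5.26, 4.14 and 8.51 CPM (WT) and 41.7, 64.9 and 122 CPM (TNF-Tg) (log2 fold change 3.53 ± 0.48, adjusted p = 0.00411), low in WT and highest in the 20-week TNF-Tg library. Pdgfb, by which tip cells recruit pericytes, was at 166, 224 and 153 CPM (WT) and 319.5, 592 and 678 CPM (TNF-Tg) (log2 fold change 1.55 ± 0.29, adjusted p = 0.0145), and the sialomucin Cd34 at 185, 100.2 and 136 CPM (WT) and 468, 514 and 778 CPM (TNF-Tg) (log2 fold change 2.06 ± 0.27, adjusted p = 0.00357). None of these 3 genes overlapped between genotypes. Among 16 receptors and ligands of VEGF, angiopoietin and semaphorins 2 rose (Nrp2 and Sema7a) and 5 fell. The fallers were the VEGF receptors Flt1 (-1.13, adjusted p = 0.0203) and Flt4 (-1.71, 0.00423), the angiopoietin receptor Tek (-1.86, 0.00871), its phosphatase Ptprb (-1.87, 0.00147) and Vegfa (-0.88, 0.0165), all by edgeR.

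Bmpr2 and Acvrl1, which receive BMP signals in endothelium, fell. Bmpr2, the type II receptor (chr1:59763400-59879014), was at 1868, 1872 and 1757 CPM (WT) and 811, 587 and 676 CPM (TNF-Tg) (log2 fold change -1.41 ± 0.14, adjusted p = 0.00149), with no overlap. Acvrl1, the endothelial type I receptor, was at 1271, 1355 and 1318 CPM (WT) and 654, 378 and 545 CPM (TNF-Tg) (log2 fold change -1.33 ± 0.18, adjusted p = 0.00409). Both were lowest in the 14-week TNF-Tg library, where removal of the mixed barcodes raised Bmpr2 to 912 and Acvrl1 to 614 CPM, still below every WT library (log2 fold changes -1.23 and -1.14). The activin receptor Acvr1b passed narrowly (-0.78, adjusted p = 0.0497). The coreceptor Eng was at 1638, 1893 and 1480.0 CPM (WT) and 756, 878 and 1522 CPM (TNF-Tg) and did not pass (adjusted p = 0.142). In all 3 of 8 receptors tested fell, none rose, and the list median was -0.63. With age as a block 2 of the list fell, and 2 when an Esm1 UMI was required.

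Of the BMP ligands, 4 of the 11 listed had enough UMIs for the test. Bmp6 was at 349.5, 359 and 356 CPM (WT) and 189.5, 144 and 216 CPM (TNF-Tg) (log2 fold change -0.96 ± 0.16, adjusted p = 0.00869) and Bmp4 at 69.2, 60.5 and 41.4 CPM (WT) and 27.8, 17.3 and 18.5 CPM (TNF-Tg) (log2 fold change -1.34 ± 0.27, adjusted p = 0.0176), and neither overlapped between genotypes. Neither ligand passed when an Esm1 UMI was required. Bmp2 was below the filter, at 1.75, 2.48 and 1.70 CPM (WT) and 25.3, 5.76 and 16.9 CPM (TNF-Tg), and every TNF-Tg library exceeded every WT library without a test. Among 7 inhibitors the secreted binder Fstl1 rose (1.53, adjusted p = 0.00894), while Smad6 (-1.57, 0.004), an inhibitory SMAD that is itself a BMP target, and the ubiquitin ligase Smurf2 (-1.07, 0.00325) fell by edgeR. The secreted BMP antagonist Nog had at most 1 UMI in a library. Of 9 target and SMAD genes 3 fell and none rose (list median -0.28): Id2 (-0.82, adjusted p = 0.0127), Tmem100 (-1.55, 0.0383), an endothelial gene induced through Acvrl1, and Bmpr2 itself. When an Esm1 UMI was required 1 gene of this list fell. Id1 and Id3, the classical targets, had values of 696, 790.1 and 937 CPM (WT) and 541, 520.3 and 781 CPM (TNF-Tg) and of 1338, 1719 and 1569.7 CPM (WT) and 1348, 1143 and 1506 CPM (TNF-Tg) and did not pass (adjusted p = 0.239 and 0.436).

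Of the 14 TGF-beta genes tested 3 rose and 1 fell (median 0.58). The ligand Tgfb2 was at 25.4, 11.6 and 6.24 CPM (WT) and 54.1, 176 and 142 CPM (TNF-Tg) (log2 fold change 3.13 ± 0.57, adjusted p = 0.0124). The 8-week TNF-Tg library was the lowest of its genotype and still above every WT library. The receptor Tgfbr2 rose (0.89, adjusted p = 0.0278) and the coreceptor Tgfbr3 fell (-1.68, 0.00575) by edgeR. Ltbp2, the third riser (2.89), had too few UMIs for the test once the mixed barcodes were removed.

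Of 15 basement membrane genes tested 9 rose and none fell, with a median of 1.79 beside 0.01 for all genes. The collagen IV chain Col4a1 was at 702, 627 and 681 CPM (WT) and 1976, 1908 and 2548 CPM (TNF-Tg) (log2 fold change 1.68 ± 0.15, adjusted p = 0.00115) and Col4a2 at 398, 308 and 328 CPM (WT) and 1158, 964 and 1463 CPM (TNF-Tg) (log2 fold change 1.79 ± 0.18, adjusted p = 0.0015). The heparan sulfate proteoglycan Hspg2 was at 27.2, 11.6 and 24.4 CPM (WT) and 158, 267 and 462 CPM (TNF-Tg) (log2 fold change 3.78 ± 0.44, adjusted p = 0.00258) and fibronectin, Fn1, at 27.2, 10.8 and 11.9 CPM (WT) and 144, 385 and 277 CPM (TNF-Tg) (log2 fold change 4.04 ± 0.46, adjusted p = 0.00247). Within these genes the lowest TNF-Tg library lay well above the highest WT library. The laminin chains Lama4 and Lamc1, Col18a1 and Sparc rose as well, by 2.35, 1.29, 3.12 and 2.08. Lama3 rose too (2.29) but had too few UMIs for the test without the mixed barcodes, which left 8 in both. Fibroblasts also express several of these genes, and the fibroblast markers summed to 486, 367 and 710.0 CPM in TNF-Tg against 378, 32.3 and 136 in WT. With the mixed barcodes removed Col4a1 changed by 1.90, Fn1 by 4.65, Hspg2 by 4.45 and Col18a1 by 5.62. In the fibroblast list the adventitial gene Pi16 rose (2.85, adjusted p = 0.0223), 1 of 8 tested. Its value was 5.57 without the mixed barcodes and 0.79 (adjusted p = 0.575 by edgeR) when cells were chosen after thinning.

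Igfbp7, a secreted binding protein of the endothelial matrix, was higher in every TNF-Tg than in every WT library, at 528, 402 and 432 CPM (WT) and 2533, 4212 and 4933 CPM (TNF-Tg) (log2 fold change 3.11 ± 0.27, adjusted p = 0.000914). It was the only one of 7 IGF-binding genes tested that passed. Among 10 integrins 1 rose (Itga9, not tested without the mixed barcodes) and 1 fell (Itga1).

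**Figure D4:**
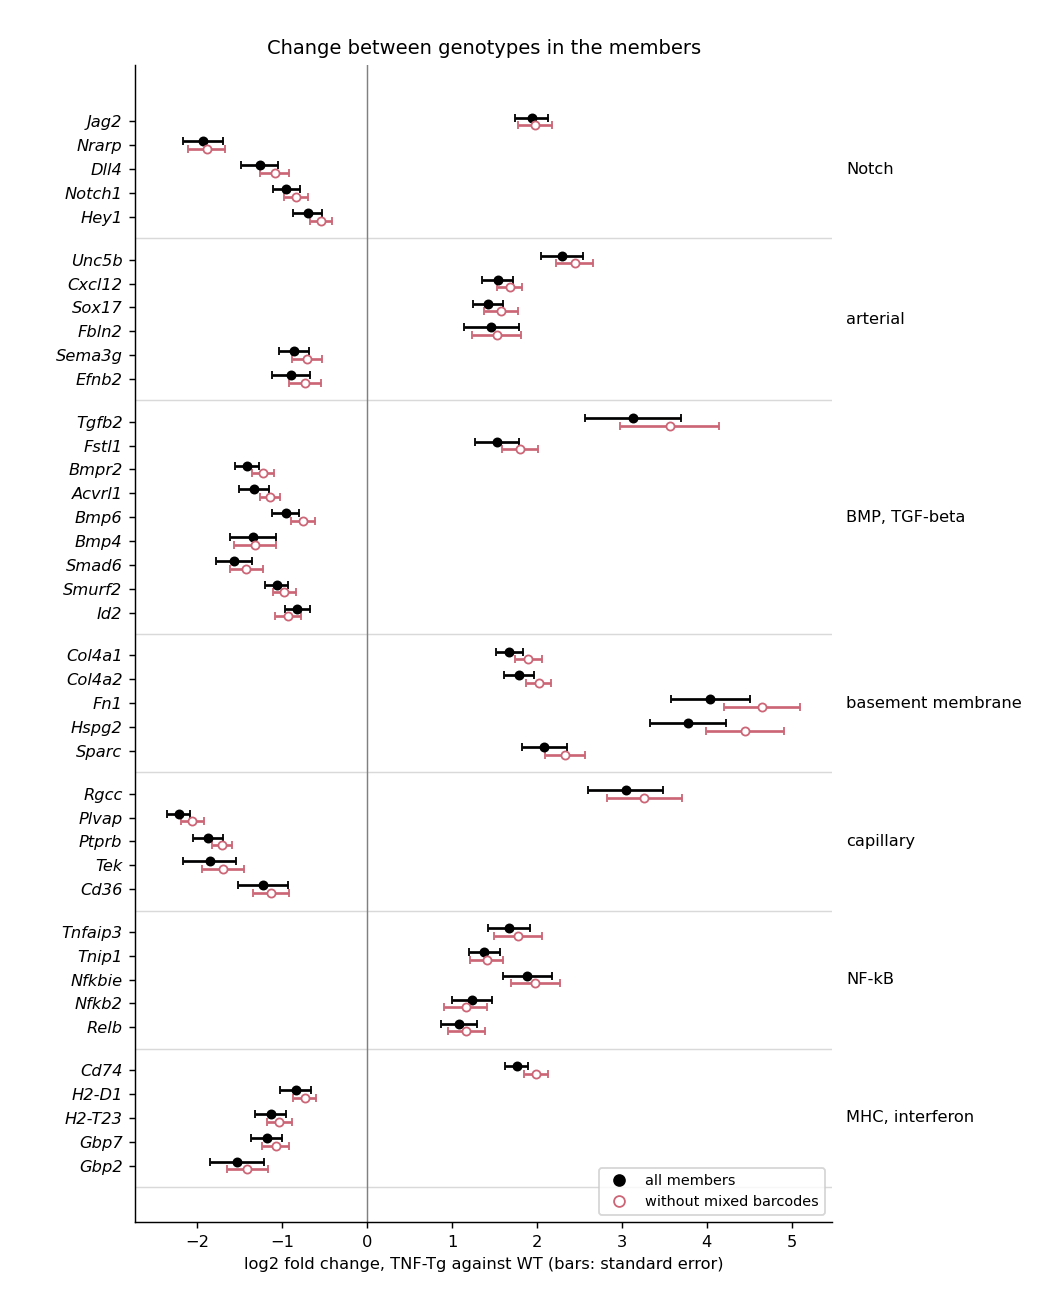
TNF-Tg over WT log2 fold change (x axis) of the named list genes in the Esm1/Cxcr4/Mecom cells, grouped by list, with error bars of 1 standard error from edgeR. Filled black points are all 1010 cells (members) and open points the cells without the 33 mixed barcodes, and all genes shown passed a false discovery rate of 0.05. Basement membrane genes lie to the right, up to Fn1 at 4.04, and BMP receptors to the left, down to Bmpr2 at -1.41.

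Among capillary and vasoactive genes more fell than rose. Of 18 general capillary genes tested 7 fell and 1 rose, with a median of -1.07. Plvap was at 2207, 2213 and 1976 CPM (WT) and 521, 418 and 437 CPM (TNF-Tg) (log2 fold change -2.22 ± 0.14, adjusted p = 0.000514), without overlap. Ptprb, Tek, Adgrl3 (-2.33), Cadm1 (-1.81), Itga1 and the fatty acid transporter Cd36 (-1.23) were the other fallers. The riser was Rgcc, a cell-cycle regulator abundant in capillary endothelium, at 37.7, 52.2 and 32.9 CPM (WT) and 165, 279.6 and 575 CPM (TNF-Tg) (log2 fold change 3.04 ± 0.44, adjusted p = 0.00557). Of 9 aerocyte genes tested outside the rule 1 fell (Pmp22). In the venous list Vwf, the clotting factor carrier, was at 794, 934 and 651 CPM (WT) and 39.2, 17.3 and 78.6 CPM (TNF-Tg) (log2 fold change -4.18 ± 0.40, adjusted p = 0.00149) and the hyaluronan receptor Lyve1 at 765, 1117 and 699 CPM (WT) and 65.5, 0 and 1.54 CPM (TNF-Tg) (log2 fold change -4.93 ± 0.86, adjusted p = 0.0104). Both were high in all WT and low in all TNF-Tg libraries. The leukocyte adhesion molecule Vcam1 rose, at 30.7, 56.3 and 13.6 CPM (WT) and 113, 187 and 136 CPM (TNF-Tg) (log2 fold change 2.14 ± 0.43, adjusted p = 0.0196, and 3.18 without the mixed barcodes), so that of 10 venous genes 1 rose and 2 fell. The only lymphatic marker called, of 2 tested, was the VEGF receptor Flt4.

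Of 14 vasoactive genes 6 fell and none rose (median -1.09). Angiotensin-converting enzyme, Ace, was at 1573, 1698 and 1829 CPM (WT) and 991, 563 and 596 CPM (TNF-Tg) (log2 fold change -1.25 ± 0.20, adjusted p = 0.00805), the natriuretic peptide receptor Npr3 at 219, 342 and 164 CPM (WT) and 42.2, 15.9 and 57.0 CPM (TNF-Tg) (log2 fold change -2.65 ± 0.38, adjusted p = 0.00557), and Ramp2, the adrenomedullin receptor partner, at 2716, 2775 and 2714 CPM (WT) and 1384, 608 and 693 CPM (TNF-Tg) (log2 fold change -1.62 ± 0.26, adjusted p = 0.00833). Groups were separate in each. The endothelin-converting enzyme Ece1 (-1.12), the natriuretic peptide receptor Npr1 (-1.06) and Gucy1b1, a subunit of the nitric oxide receptor (-2.05), fell too. Edn1, the vasoconstrictor endothelin 1, was at 433, 490.3 and 307 CPM (WT) and 127, 278 and 542 CPM (TNF-Tg) and did not pass (adjusted p = 0.651).

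TNF acts through Tnfrsf1a on NF-kB, whose targets include inhibitors that form a feedback loop. In these cells the receptor fell and feedback genes rose. Tnfrsf1a was at 218, 199 and 235 CPM (WT) and 147, 105 and 126 CPM (TNF-Tg) (log2 fold change -0.78 ± 0.15, adjusted p = 0.0161). The deubiquitinase gene Tnfaip3 was at 20.1, 10.8 and 18.2 CPM (WT) and 51.6, 56.2 and 50.8 CPM (TNF-Tg) (log2 fold change 1.67 ± 0.25, adjusted p = 0.00592), its partner Tnip1 at 27.2, 22.4 and 32.3 CPM (WT) and 79.4, 67.7 and 67.8 CPM (TNF-Tg) (log2 fold change 1.38 ± 0.19, adjusted p = 0.00422), and the inhibitor Nfkbie at 7.01, 8.28 and 6.81 CPM (WT) and 33.7, 20.2 and 26.2 CPM (TNF-Tg) (log2 fold change 1.89 ± 0.29, adjusted p = 0.00689). No library of one genotype overlapped the other in these 3 genes. The noncanonical subunits Nfkb2 (1.24, adjusted p = 0.0142) and Relb (1.08, 0.0166) rose, making 5 risers and 1 faller of 17 tested (median 0.25). Mouse Tnf was below the filter, at 1.75, 1.66 and 0.567 CPM (WT) and 2.98, 8.65 and 4.62 CPM (TNF-Tg). Nfkbia, the inhibitor most used as a readout of NF-kB, was at 492, 432 and 436 CPM (WT) and 665, 487 and 509.8 CPM (TNF-Tg) and did not pass (adjusted p = 0.288). Among 9 adhesion and chemokine targets tested, Vcam1 and Tnfaip2 (2.24, 0.00689) rose and Irf1 (-0.75, 0.0357) fell, while Icam1 was at 159, 173 and 160.0 CPM (WT) and 152, 82.1 and 108 CPM (TNF-Tg) without passing (adjusted p = 0.148).

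The promoters of the NF-kB genes that rose together were read for the letters of an NF-kB-type motif, GGGNNTTCC on either strand (GGAANNCCC on the other), in the 250 bases before the first RefSeq start on GRCm38.p6. These letters occur in 4.98% of the 32851 promoters of the table. Of the 5 genes 4 were in the table and all 4 held the letters. The stretch around the matches is shown 5′ to 3′ on the strand of the gene, from the minus strand for Tnip1 (chr11:54962958-54963027) and Tnfaip3 (chr10:19015411-19015452) and the plus strand for Nfkbie (chr17:45555565-45555633) and Nfkb2 (chr19:46304668-46304736). Capitals mark matches, and GGGAATTCCC is matched on both strands by overlapping windows.
Tnip1: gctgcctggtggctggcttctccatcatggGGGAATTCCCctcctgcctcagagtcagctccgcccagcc
Tnfaip3: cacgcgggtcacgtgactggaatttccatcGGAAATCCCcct
Nfkbie: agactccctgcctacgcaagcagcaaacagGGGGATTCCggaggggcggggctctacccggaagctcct
Nfkb2: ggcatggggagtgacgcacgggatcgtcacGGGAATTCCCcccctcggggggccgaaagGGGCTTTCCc
A match describes the letters and shows no binding.

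Interferon-stimulated and MHC genes split by class. Of 26 interferon-stimulated genes 6 fell and none rose (median -0.40), among them the guanylate-binding proteins Gbp2 (-1.54, adjusted p = 0.0218) and Gbp7 (-1.19, 0.00712) and the GTPases Iigp1 (-1.50, 0.0353) and Igtp (-1.41, 0.0387). Of 15 MHC class I genes 3 fell and none rose (median -0.72), and without the mixed barcodes 6 fell, with H2-K1, Psmb9 and Psmb10 added. The classical H2-D1 was at 3293, 3207 and 3155 CPM (WT) and 2387, 1443 and 1586 CPM (TNF-Tg) (log2 fold change -0.84 ± 0.18, adjusted p = 0.0227). In MHC class II 2 of 7 rose and none fell (median 0.45). The invariant chain Cd74 was at 350.4, 353 and 361 CPM (WT) and 1240.4, 1035 and 1342 CPM (TNF-Tg) (log2 fold change 1.76 ± 0.14, adjusted p = 0.000719) and separated the genotypes by more than the range within either. H2-Eb1 rose by 0.74 (adjusted p = 0.0356), but its value turned to -0.16 when all 3 defining genes were required and to -0.10 when the Prnd cells were kept. After removal of the mixed barcodes 4 class II genes rose.

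Among 27 endothelial transcription factors 3 rose and 3 fell. Meox1 was at 47.3, 27.3 and 28.9 CPM (WT) and 156, 170.1 and 279 CPM (TNF-Tg) (log2 fold change 2.54 ± 0.29, adjusted p = 0.00247) and Tcf15, the partner of Meox2 in capillary endothelium, at 7.01, 5.80 and 5.11 CPM (WT) and 23.3, 27.4 and 132 CPM (TNF-Tg) (log2 fold change 3.25 ± 0.73, adjusted p = 0.0292). Sox17 was the third riser. The hypoxia-responsive factor Epas1 was at 2941, 3041 and 2975 CPM (WT) and 1431, 824 and 1033 CPM (TNF-Tg) (log2 fold change -1.46 ± 0.18, adjusted p = 0.00325), the capillary factor Foxf1 fell by 1.42 on the log2 scale and the flow-responsive factor Klf2 by 0.91. Of 17 glycolysis and hypoxia genes Ldha (1.70) and Eno1 (1.14) rose while Vegfa and Pdk1 (-1.30) fell. Among 14 cell cycle genes Mcm2 rose (2.17) and Ccnd2 fell (-0.97). Jun, Dusp1 and Btg2, genes that also respond to tissue dissociation, fell, 3 of 17 in their list.

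Removal of the mixed barcodes added calls in other lists too, and the genes named here had the same sign with all barcodes. Fallers of general capillary genes became 9, with the lipase anchor Gpihbp1 (-0.92, adjusted p = 0.0231) and Hilpda (-1.83, adjusted p = 0.0234), and fallers of vasoactive genes 8, with the caveolar coat gene Cav1 (-0.68, adjusted p = 0.0186) and Hpgd (-1.57, adjusted p = 0.0294), which degrades prostaglandins and is an aerocyte gene too. In the Notch list the protease Adam10, which cleaves Notch receptors, rose (0.64, adjusted p = 0.0257). In the TNF receptor and NF-kB list Bcl3 rose (0.81, adjusted p = 0.0441) and the caspase inhibitor Cflar fell (-0.52, adjusted p = 0.0385). Oas1a rose among interferon-stimulated genes (1.21, adjusted p = 0.0427) and Twsg1 among BMP inhibitors (0.94, adjusted p = 0.0453). The growth factor receptor Igf1r, on the tip cell and IGF-binding lists, fell (-0.96, adjusted p = 0.016). Tmem252, Itgb1, Mcm7 and Nr4a1 rose and Egr1, Cdkn2b, Cx3cl1 and Hopx fell in the remaining lists. All these p-values are by edgeR over the 8621 genes tested without the mixed barcodes, and none of these genes passed with all barcodes.

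The largest changes among genes of at least 50 CPM with 1 direction at all ages were taken from 260 higher and 324 lower genes. Among the 10 largest rises were S100a4, Vwa1, Fn1, Hspg2, Nebl, Adgrg1, Nupr1, Cystm1 and Sema5a. S100a4, a calcium-binding protein of activated and mesenchymal cells, was at 3.50, 0 and 13.6 CPM (WT) and 31.3, 516 and 75.5 CPM (TNF-Tg) (log2 fold change 4.97 ± 1.21, adjusted p = 0.0384). Vwa1, a matrix protein that binds perlecan, was at 0.876, 4.97 and 6.24 CPM (WT) and 18.4, 57.6 and 220.3 CPM (TNF-Tg) (log2 fold change 4.39 ± 0.99, adjusted p = 0.0292). In both, the highest WT library was below the lowest TNF-Tg library, and the 14-week TNF-Tg value of S100a4 came down to 148 CPM without the mixed barcodes. Nupr1 and Cystm1 fell below the filter once the mixed barcodes were removed, and Ccn3, Ccdc184, Col18a1, Pi16 and Cdh13 were then among the 10 largest rises. Of these Ccn3 passed only without the mixed barcodes (log2 fold change 2.10, adjusted p = 0.181 with all barcodes). The 10 largest falls were Olfm2, Lyve1, Vwf, Slc16a9, Ankrd63, Gpr182, Samd5, Gata3, Glb1l2 and Grp. Olfm2 was at 67.4, 96.9 and 42.5 CPM (WT) and 1.98, 0 and 0 CPM (TNF-Tg), with 4 UMIs in all over the 3 TNF-Tg libraries (log2 fold change -5.79 ± 0.60, adjusted p = 0.00152). Gpr182, an atypical chemokine receptor of endothelium, was at 197, 277 and 241 CPM (WT) and 36.2, 2.88 and 1.54 CPM (TNF-Tg) (log2 fold change -3.71 ± 0.58, adjusted p = 0.00728), high in all WT libraries.

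Cells with different defining genes were also set side by side, as a description without the mixed barcodes over cells pooled within a genotype, for a few genes chosen after values were seen. In WT, Dll4 was at 472 CPM in cells with Esm1 and Cxcr4, 383 CPM in those with Esm1 and Mecom, 402 CPM in those with Cxcr4 and Mecom and 605 CPM in those with all 3. In TNF-Tg the same combinations had 313, 110 and 246 CPM and, with all 3, 277 CPM. The TNF-Tg pools differed in age. With all barcodes, Cxcr4 with Mecom came from 149, 28 and 26 cells at 8, 14 and 20 weeks. Esm1 with Mecom came from 6, 13 and 22 cells. Combination and age were thus mixed in these values, and the part of age was not tested. Igfbp7 ran from 270 to 515 CPM over the 4 combinations in WT and from 2494 to 5301 CPM in TNF-Tg, and Plvap from 1782 to 2448 and from 422 to 838 CPM. In these 3 genes every combination of one genotype lay on one side of every combination of the other. In Hey1 they overlapped, at 318 to 413 CPM in WT and 227 to 331 CPM in TNF-Tg. Within WT, Vwf differed between the combinations, at 446 CPM with Esm1 and Cxcr4 and 1131 CPM with Cxcr4 and Mecom, and so did Cxcl12, at 764 and 1443 CPM. When an Esm1 UMI was required, 414 genes passed, and 379 of the 775 kept their call and sign.

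Whether the TNF-Tg change itself differed from that of the other endothelial cells was tested by an interaction of class and genotype with the library as a block. Of 12336 genes 11 passed (0.0892%), 6 with a more positive (0.0486%) and 5 with a more negative change (0.0405%) in the Esm1/Cxcr4/Mecom cells, and 821 had an unadjusted p under 0.05. One is a gene of the rule and is not described. Without the mixed barcodes 103 of 11878 genes passed (0.867%, with 0.354% more positive and 0.514% more negative), all 11 among them with the same sign. The calls rested on each of the WT libraries. Without that of 8 weeks no gene passed by edgeR and 653 had an unadjusted p under 0.05, without that of 14 weeks 2 passed, 1 of them among the 11, and without that of 20 weeks 3 passed, 2 of them among the 11. DESeq2 called 46 genes with all libraries.

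The fatty acid carrier Fabp5 was at 7.88, 11.6 and 26.1 CPM (WT) and 75.9, 125 and 316 CPM (TNF-Tg) and in the other endothelial cells at 46.0, 22.6 and 278 CPM (WT) and 85.3, 155 and 189.8 CPM (TNF-Tg). Its log2 fold change was 3.38 against 0.30, a difference of 2.92 (adjusted p = 0.0328 by edgeR). The chemokine Cx3cl1, a leukocyte attractant held on the membrane, was at 65.7, 100.2 and 100.4 CPM (WT) and 32.3, 47.6 and 60.1 CPM (TNF-Tg) and in the other cells at 24.9, 38.0 and 39.1 CPM (WT) and 33, 40.6 and 49.9 CPM (TNF-Tg). Its log2 fold change was -1.0 here and 0.25 there (difference -1.25, adjusted p = 0.0136). The Kit ligand gene, Kitl, had a log2 fold change of -0.36 against 0.43 (difference -0.81, adjusted p = 0.0288). For Cx3cl1 and Kitl the fold changes had opposite signs in the classes compared.

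Tcim, a positive regulator of Wnt signalling, had log2 fold changes of 2.02 in these cells and 0.78 in the others, and the secreted protease inhibitor Wfdc1 1.78 and 0.63. Pcp4l1 differed by 1.33, with 0.18 here and -1.16 in the other cells. Psen2, a subunit of the gamma-secretase that cleaves Notch receptors, was at 115, 164 and 107 CPM (WT) and 49.6, 28.8 and 32.3 CPM (TNF-Tg). Its log2 fold change was -1.74, compared with 0.28 in the other cells, which were at 30.3, 34.4 and 33.7 CPM (WT) and 33.1, 40.8 and 48.1 CPM (TNF-Tg). Only the WT libraries thus had clearly more Psen2 RNA in the chosen cells than in the other cells. The tetraspanin Cd82 was at 46.4, 44.7 and 40.8 CPM (WT) and 76.4, 67.7 and 35.4 CPM (TNF-Tg) and in the other cells at 8.88, 12.7 and 11.5 CPM (WT) and 60.5, 49.1 and 49.7 CPM (TNF-Tg), with log2 fold changes of 0.48 and 2.24. The transporter Atp13a3 had log2 fold changes of 0.74 here and 3.97 there. For both, WT levels were higher in the chosen cells and TNF-Tg levels overlapped between the classes. Gas6, a ligand of TAM receptor kinases, was below the level fixed for naming and is given because the count is short: its difference was 2.51 (adjusted p = 0.00943), with log2 fold changes of 1.67 here and -0.92 in the other cells. Set against the 569 arterial cells in place of the other endothelial cells, the differences of Tcim, Wfdc1, Psen2, Cd82 and Atp13a3 turned to -0.80, -0.36, 0.19, 0.71 and 0.51. None of these 5 passed against the arterial cells (adjusted p from 0.421 to 0.941). The difference of Cx3cl1 passed against arterial cells as well (-1.61, adjusted p = 0.0213 by edgeR), the only one of the 11 to do so.

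**Figure D5:**
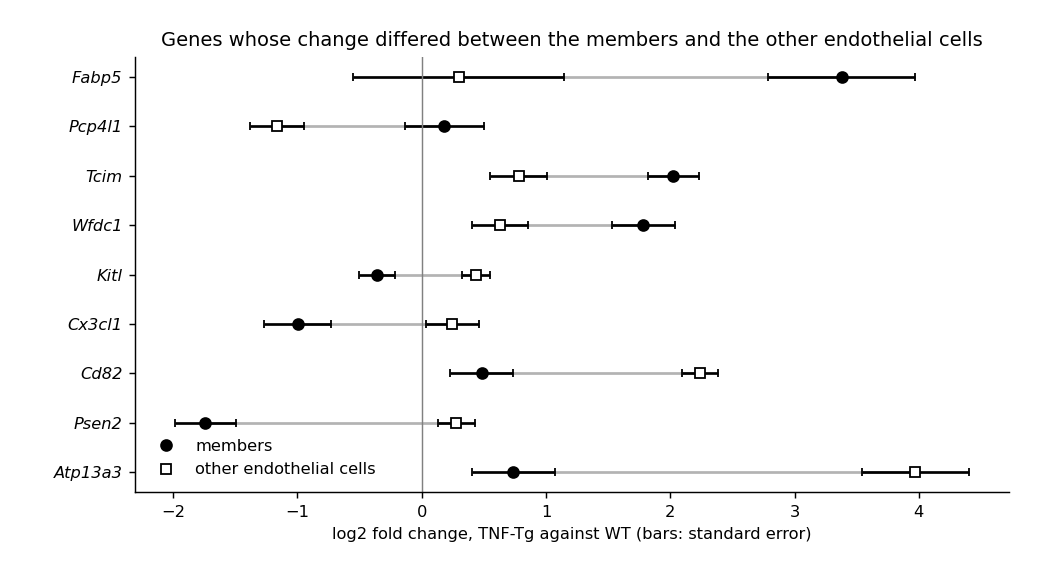
TNF-Tg over WT log2 fold change with 1 standard error (x axis) of the genes whose change differed between classes, in the Esm1/Cxcr4/Mecom cells (members, filled circles) and the other endothelial cells (open squares). Fabp5 lies at 3.38 in the Esm1/Cxcr4/Mecom cells and 0.30 in the other endothelial cells, and Cx3cl1 at -1.0 and 0.25.

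No gene of the Notch, BMP or basement membrane lists was among these 11 genes. Dll4 changed by -1.27 here and -0.81 in the other endothelial cells (difference -0.49, adjusted p = 0.46), and Bmpr2 by -1.41 and -1.15 (difference -0.28 ± 0.14, adjusted p = 0.783). Col4a1 changed by 1.68 and 1.77 (difference -0.14 ± 0.14, 0.927). Without the mixed barcodes 5 of 7 MHC class II genes differed between the classes, where 0.867% of all genes did: Cd74 (1.10), H2-Eb1 (0.97), H2-DMb1 (0.76), H2-Aa (0.67) and H2-Ab1 (0.59). The basement membrane gene Hspg2 then differed by -0.96 (adjusted p = 0.0444 by edgeR). The called differences also included Jag2 (0.86), Efnb2 (-0.65), Nrp2 (1.54) and Pdgfb (0.67), and none of these 10 genes passed with all barcodes. Without the mixed barcodes 4 of 18 listed general capillary genes differed as well (Hmcn1, Sema3c, Itga1 and Rgcc). So did 4 of 32 listed transcription factors (Foxf1, Meox1, Gata6 and Egr1). In the list of adhesion and chemokine targets 3 of 20 differed (Cx3cl1, Icam1 and Cxcl16), and in the VEGF receptor list 3 of 17 (Nrp2, Sema3c and Vegfa). The largest called differences without the mixed barcodes, at the level for naming, were Thbs1 (2.70), Bgn (2.09) and Ramp3 (1.64) in the positive direction beside Fabp5 and Nrp2, and AU021092 (-2.98), Cd55 (-2.56) and Plac8 (-2.0) in the negative direction beside Atp13a3 and Cd82. Cd55, which shields cells from complement, was then at 51.5, 73.3 and 43.8 CPM (WT) and 109, 58.6 and 32.1 CPM (TNF-Tg), and in the other cells at 5.57, 5.87 and 4.94 CPM (WT) and 34.9, 41.5 and 70.8 CPM (TNF-Tg), so that it was far higher in the chosen cells in WT and lower than in the other cells in TNF-Tg at 20 weeks. Against the arterial cells, all barcodes included, the difference of Cd55 was 0.91 and that of AU021092 -0.78, and neither passed (adjusted p = 0.576 and 0.7 by edgeR).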

How the data were processed

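Per the file headers and the submitters' processing notes, the authors aligned reads to mm10 and counted UMIs with Cell Ranger (5.0.0 in the notes and the 8-week headers, 6.0.1 in the 14- and 20-week headers), and they deposited raw UMI counts per gene and barcode without normalization. The genotype was taken from the sample titles. Members and gene lists were chosen with earlier results of these data known.

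UMIs were summed per library over the chosen cells, and separately over the other endothelial cells. Sums were tested with edgeR 4.0.16 (R 4.3.3) by glmQLFit and glmQLFTest after filterByExpr and TMM scaling, with a false discovery rate of 0.05 and Benjamini-Hochberg adjustment. The genotype fit had no covariate, and the fit of class by genotype had the library as a block. Shares were compared by two-sided exact permutation over libraries. Cells are not replicates and were not tested. Printed CPM (counts per 1e6 summed UMIs) use the unscaled sum. The tests were tried on simulated counts.

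Genes were named by rule: those used in the choice, as a description; the 10 largest changes each way among called genes at 50 CPM or more with 1 direction at all 3 ages; up to 4 called genes each way per list, by smallest adjusted p, with the BMP receptors and ligands; the 10 highest against the other endothelial cells; and the 5 largest called differences between classes each way. Some genes that the rule takes are not reported here. Genes named with values that did not pass, and the cells without mixed barcodes, were chosen after values were seen. Positions are from GENCODE on mm10 and promoters from RefSeq on GRCm38.p6.

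Alternatives covered the choice of cells (thinning to 2000 UMIs, all 3 genes, an Esm1 UMI, no Prnd drop, 1000 genes and 5% mitochondrial UMIs, Scrublet in scanpy 1.11.5 at 0.8% per 1000 barcodes, mixed barcodes removed), RLE scaling, DESeq2 1.42.0, no filter, thinned sums, age as a block and leaving out each library. Doublets were not removed otherwise. Intervals of shares cover counting error only.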

Additional observations from a re-analysis of the deposited data

Results flagged for a closer look

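The TNF-Tg over WT log2 fold change differed between the Esm1/Cxcr4/Mecom cells and the other endothelial cells for 10 genes outside the rule, by edgeR's interaction test with Benjamini-Hochberg adjustment. The difference, taken as these cells minus the other cells, was 2.92 for Fabp5 (adjusted p = 0.0328), 2.51 for Gas6 (0.00943), 1.33 for Pcp4l1 (0.0136), 1.22 for Tcim (0.00943) and 1.14 for Wfdc1 (0.0199). It was -0.81 for Kitl (0.0288), -1.25 for Cx3cl1 (0.0136), -1.80 for Cd82 (0.0235), -1.91 for Psen2 (0.0235) and -3.11 for Atp13a3 (0.0356). Of the 11 called differences, the rule gene included, 10 passed with the same sign with the cells dropped for Prnd kept, 7 when cells were chosen after thinning to 2000 UMIs, 7 when the sums of both classes were thinned to the smallest, 4 when an Esm1 UMI was required and 1 against arterial cells.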

How the results depend on the processing

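The share of Esm1/Cxcr4/Mecom cells was lower in TNF-Tg under 8 choices of cells or denominator, the rule as given included, and higher under 3: a difference of 3.16 percentage points with the cells dropped for Prnd kept, 4.63 with no class dropped, and 0.38 with no class dropped after thinning. The direction thus changed with the cells that the rule drops, and the size of the difference changed with depth. With no class dropped the exact permutation test gave p = 0.1 as found and p = 0.9 after thinning. The difference with the Prnd cells kept was not taken after thinning, so the part of depth in it was not tested. Leaving out each library gave -2.73 to -1.53 points. With age as a replicate block the smallest possible exact p was 0.25 and the p was 0.5.

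Genes changed between genotypes numbered 775, and 248 when all 3 genes were required, 414 when an Esm1 UMI was required and 2140 with the Prnd cells kept, of which 728 were shared calls of the same sign. Leaving out each library gave 146 to 1388. Same-age libraries of the genotypes had deviations correlated at 0.15, -0.10 and 0.11 over 3403 genes, and not every library correlated best with its own age, so age was not taken as a pairing, although same-age libraries share the age of the mice and the version of the counting software. The replicate block on age gave 670 calls, 594 of them shared. Genes that differed between classes numbered 11, and 46 by DESeq2, 77 with all 3 genes required, 4 with an Esm1 UMI, 26 against arterial cells, 103 without the mixed barcodes, 150 when cells were chosen after thinning, 35 with the Prnd cells kept and 271 with no filter on low counts. Leaving out each library gave 0 to 88.

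Reversed single genes were Fbln2 (-0.020) and H2-Eb1 (-0.10) with the Prnd cells kept, H2-Eb1 with all 3 genes required (-0.16), and, against arterial cells, Tcim (-0.80), Wfdc1 (-0.36), Atp13a3 (0.51), Psen2 (0.19) and Cd82 (0.71). The cause was not tested. Over 125 single-gene results, settings that kept all libraries gave 1292 values with the same call, 150 that lost it and 8 reversed, and settings without 1 library gave 459 and 291. The 14- and 20-week TNF-Tg sums were the smallest and came from 49 and 66 cells.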
